A study of Mus musculus with 30 samples.

Results

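Expression of 10 transcription factor genes of the trophoblast lineage was followed in neuronal progenitor cells (NPCs) derived from mouse embryonic stem cells (ESCs). The genes are *Cdx2*, *Elf5*, *Gata2*, *Gata3*, *Tfap2a*, *Tfap2c*, *Hand1*, *Tead4*, *Gcm1* and *Ets2*, taken by gene symbol from a table of read counts for 25400 genes. Each symbol occurred once in the table, and all 10 genes passed the filter on low counts, which left 16582 genes for testing.

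The trophoblast is the first lineage to separate from the cells that form the embryo proper, and it builds the fetal side of the placenta. TEAD4, the DNA-binding partner of the Hippo pathway coactivator YAP, acts upstream of CDX2 and GATA3 in the outer cells of the embryo. CDX2, ELF5, EOMES, ETS2 and TFAP2C maintain trophoblast stem cells, which depend on FGF4, while HAND1 drives the formation of trophoblast giant cells and GCM1 that of the syncytiotrophoblast. Several of these factors have other uses in the embryo: TFAP2A acts in neural crest and surface ectoderm, GATA2 and GATA3 in neurons and blood, CDX2 in the posterior body axis and the intestine, and HAND1 in mesoderm and heart. ESCs rarely enter the trophoblast lineage, and MBD3 is a subunit of the NuRD complex, which couples histone deacetylation to nucleosome remodeling.

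Poly(A) RNA of NPCs was sequenced in 24 libraries, 3 from each of 8 lines. WT cells were compared with *Mbd3* KO cells and with *Mbd3* KO cells that carry a construct under the CAG promoter at a single recombination site of the HA36CB1 ESC line, so that all lines but WT lack endogenous MBD3 and all keep endogenous *Mbd2*. The constructs were MBD3a (the longest MBD3 isoform), MBD3ΔMBD (lacking the methyl-CpG binding domain), MBD2a (full-length MBD2), MBD2aΔGR (MBD2a lacking its glycine-arginine stretch), MBD2aR181C (MBD2a with a substitution in the methyl-CpG binding domain, named as in the sample labels, whose residue number differs from that in the study's text) and MBD2t (the MBD2 isoform lacking the coiled coil). Libraries came from individually derived clones, except that the 3 MBD2t libraries are repeats of 1 clone. The comparisons ask how far each protein returns expression in *Mbd3* KO cells to that of WT, and p-values measure the spread between these libraries, which for MBD2t may be technical.

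The promoters of these genes differ widely in their content of the CG dinucleotide, the site of DNA methylation that MBD2 can bind. RefSeq promoter windows on GRCm38.p6, which reach from 250 bases upstream to 50 bases downstream of a transcription start, were given for 7 of the 10 genes in 10 windows. Entries for *Hand1*, *Tead4* and *Tfap2c* were not among them. The 250 upstream bases of 4 genes are shown because they span the range, from the poorest to the richest in CG, with each CG in capitals. They lie at chr9:78051708-78051957 for *Gcm1*, chr2:103411848-103412097 for a start of *Elf5*, chr6:88198414-88198663 for a start of *Gata2* and chr16:95702157-95702406 for *Ets2*, each on the plus strand and printed 5′ to 3′.
Gcm1: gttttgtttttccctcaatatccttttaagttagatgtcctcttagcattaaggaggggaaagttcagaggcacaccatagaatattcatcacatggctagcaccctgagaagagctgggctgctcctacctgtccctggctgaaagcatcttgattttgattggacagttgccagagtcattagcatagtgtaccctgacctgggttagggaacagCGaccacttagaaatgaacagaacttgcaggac
Elf5: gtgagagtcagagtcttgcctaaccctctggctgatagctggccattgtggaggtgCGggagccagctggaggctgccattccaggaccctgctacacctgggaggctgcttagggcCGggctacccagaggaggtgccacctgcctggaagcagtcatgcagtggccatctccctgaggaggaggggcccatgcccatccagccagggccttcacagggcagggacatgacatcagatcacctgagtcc
Gata2: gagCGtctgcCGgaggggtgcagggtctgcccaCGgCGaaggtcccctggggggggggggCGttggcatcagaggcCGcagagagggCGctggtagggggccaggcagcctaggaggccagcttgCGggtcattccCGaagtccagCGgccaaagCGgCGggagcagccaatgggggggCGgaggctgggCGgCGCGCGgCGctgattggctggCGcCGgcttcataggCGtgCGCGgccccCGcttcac
Ets2: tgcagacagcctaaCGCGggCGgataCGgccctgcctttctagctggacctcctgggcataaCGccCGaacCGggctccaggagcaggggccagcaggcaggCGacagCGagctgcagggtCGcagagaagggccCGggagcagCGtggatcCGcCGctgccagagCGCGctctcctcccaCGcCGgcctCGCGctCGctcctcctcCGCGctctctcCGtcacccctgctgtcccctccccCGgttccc

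These upstream stretches held 1 CG in *Gcm1*, 2 in *Elf5*, 24 in *Gata2* and 25 in *Ets2*, beside a median of 6 over all 32851 windows given. At the other start given for *Elf5* the upstream stretch held 8, above that median, and at the other start of *Gata2* it held 22. Over the whole window of 300 bases, *Cdx2* had 18, *Gata3* 22 and the pair of *Tfap2a* windows 11 and 15, with a median of 7 over all windows. Letters bound by factors of the same families were also searched on both strands of the whole window. The TEAD motif GGAATG was present in 2 of the 10 windows and in 14.7% of all windows. For AGATAA, read by GATA factors, the counts were 0 of 10 and 11.2%. For GCCNNNGGC, the AP-2 motif, they were 3 of 10 and 16.6%. The motifs do not contain one another. No promoter methylation was measured in these libraries.

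Read totals per library spanned 27993858 to 49392806 (median 36797095). Levels are given as CPM, the counts scaled to a common library size after TMM correction, where 3 counts correspond to 0.0607 to 0.107 CPM. *Mbd3* was at 149 to 157 CPM in WT and at 34.2 to 73.8 CPM in *Mbd3* KO, and *Mbd2* was at 64.2 to 70.9 CPM in *Mbd3* KO, 67.0 to 87.2 in MBD2a, 280.3 to 700.2 in MBD2aΔGR, 253 to 325 in MBD2aR181C and 335 to 356 in MBD2t. *Mbd3* reached 168 to 198 CPM in MBD3a and 423 to 496 CPM in MBD3ΔMBD. The MBD2a libraries thus overlapped those of *Mbd3* KO in their *Mbd2* level, which does not mark the construct in that line. The summed level of 11 neural progenitor marker genes was 1452 to 1732 CPM in WT and 90.5 to 151 CPM in *Mbd3* KO. All 11 were detected in every library, so that the *Mbd3* KO libraries held the labelled cell type's markers at a far lower level than WT. Among the MBD2aΔGR libraries, s18 stood apart with 13848 CPM summed over 12 primitive endoderm marker genes, against 781 and 1062 CPM in the other libraries of the line. WT library s03 differed from s01 and s02 across the genome, with a mean chi-square per gene of 187 and 160. Between s01 and s02 that value was 24.4.

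The genes of the trophoblast lineage were expressed at a higher level in *Mbd3* KO than in WT NPCs, with *Tfap2a* as the exception. All 10 genes passed the test, 9 of them higher and 1 lower, where 33.8% of all genes tested were called and 19.6% were called higher. A gene was called when the Benjamini-Hochberg adjusted p-value of edgeR was under 0.05 and the absolute log2 fold change above 1. The median log2 fold change was 3.43 over the 10 genes and −0.03 over all genes tested. The ranges of the 3 WT and 3 *Mbd3* KO libraries did not overlap for any of the 10, which was also true of 62.2% of all genes. In bulk RNA, a change in the share of cells of a type and a change in RNA per cell cannot be told apart.

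**Figure D1:**
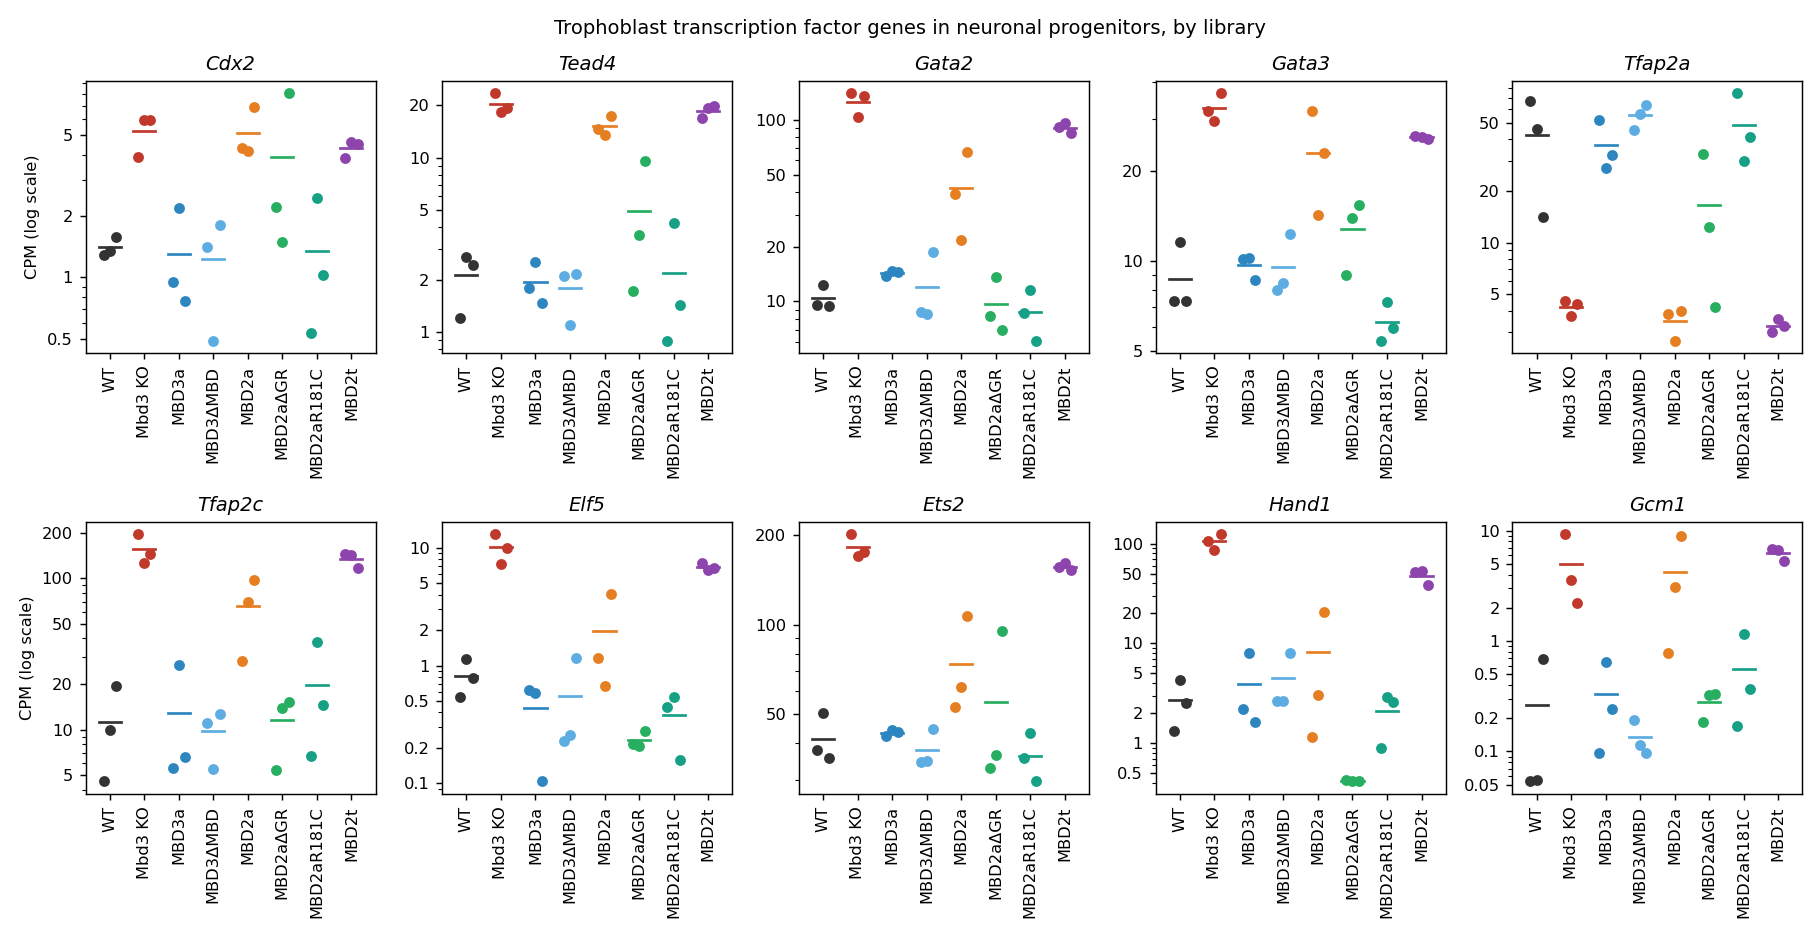
Level of each of the 10 genes in CPM (log axis) in the 24 libraries, with 1 point per library and a horizontal bar at the mean of the 3 libraries of a line. *Mbd3* KO and MBD2t libraries sit above WT for 9 genes and below it for *Tfap2a*, while the MBD2a libraries spread widely for *Hand1*, *Elf5* and *Gcm1*.

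*Tead4* and *Cdx2* stand at the top of the trophoblast program. *Tead4* (mm9 chr6:128174306-128250841) was at 1.21, 2.696 and 2.43 CPM in the WT libraries, at 23.4, 18.4 and 19.4 CPM in *Mbd3* KO and at 14.7, 13.6 and 17.5 CPM in MBD2a. In MBD2t it was at 16.9, 19.4 and 19.8 CPM, whereas the MBD3a, MBD3ΔMBD and MBD2aR181C libraries ranged from 0.892 to 4.21 CPM. Every *Mbd3* KO, MBD2a and MBD2t library was thus above every library of WT, MBD3a, MBD3ΔMBD and MBD2aR181C. MBD2aΔGR spread from WT levels upwards, at 1.72, 3.604 and 9.56 CPM, with s18 the highest. *Tead4* rose in *Mbd3* KO against WT with a log2 fold change of 3.27 ± 0.49 (SE, edgeR adjusted p = 1.84e-05), and in MBD2a by 2.85 ± 0.49 (edgeR adjusted p = 0.000105). Between MBD2a and *Mbd3* KO the log2 fold change was −0.42 ± 0.42, with a 95% confidence interval from −1.30 to 0.46.

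*Cdx2* (chr5:148112381-148118846) is the homeobox gene that defines the trophectoderm, and it was weakly expressed throughout. WT libraries held 1.29, 1.35 and 1.58 CPM, *Mbd3* KO libraries 3.92, 5.95 and 5.92 CPM and MBD2a libraries 4.35, 4.18 and 6.91 CPM. The rise against WT was 3.74-fold in *Mbd3* KO (log2 fold change 1.90 ± 0.55, edgeR adjusted p = 0.00585) and 3.66-fold in MBD2a (log2 fold change 1.87 ± 0.55, edgeR adjusted p = 0.00764). MBD2a and *Mbd3* KO overlapped, and their difference of −0.03 had a confidence interval from −1.04 to 0.97. MBD2aΔGR was the least uniform line for this gene, at 2.21, 1.49 and 8.03 CPM, so that s18 held the highest *Cdx2* level of all 24 libraries while the other MBD2aΔGR libraries lay close to WT. Without s18, the mean of MBD2aΔGR was 1.85 CPM (n = 2), and the difference to *Mbd3* KO passed the test with a log2 fold change of −1.51 (edgeR adjusted p = 0.0125). The MBD3a, MBD3ΔMBD and MBD2aR181C libraries ranged from 0.489 to 2.47 CPM.

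Among the GATA factors, *Gata2* (chr6:88143885-88157024), which binds placental lactogen genes in giant cells, was at 9.50, 12.4 and 9.50 CPM in WT and at 139.9, 103 and 135 CPM in *Mbd3* KO. MBD2t held 91.4, 95.7 and 85.1 CPM and MBD2a 38.9, 21.7 and 66.3 CPM. MBD2a therefore lay between WT and *Mbd3* KO with no overlap on either side, and both differences passed the test: 2.02 ± 0.35 against WT (edgeR adjusted p = 0.000117) and −1.57 ± 0.34 against *Mbd3* KO (edgeR adjusted p = 0.00553). In *Mbd3* KO the rise over WT was 12.1-fold (log2 fold change 3.59 ± 0.37, edgeR adjusted p = 3.93e-07). MBD2aΔGR libraries were at 8.35, 13.7 and 6.98 CPM, and the log2 fold change to WT of −0.11 had a confidence interval from −0.86 to 0.63. The *Gata2* promoter shown above is among the richest in CG of the set, with 24 in 250 bases.

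*Gata3* (chr2:9778705-9811661) works alongside CDX2 in the trophectoderm. Its levels were 7.33, 11.6 and 7.33 CPM in WT, 31.9, 29.5 and 36.5 CPM in *Mbd3* KO, 31.9, 14.3 and 23.04 CPM in MBD2a and 26.2, 26.1 and 25.7 CPM in MBD2t. The rise in *Mbd3* KO was 3.74-fold (log2 fold change 1.90 ± 0.26, edgeR adjusted p = 6.63e-06). In MBD2a the log2 fold change against WT was 1.40 ± 0.26 (edgeR adjusted p = 0.000186), and that against *Mbd3* KO was −0.50 with a confidence interval from −1.01 to 0.02. *Gata3* overlaps the gene models *9230102O04Rik* on its own strand and *Gm13256* on the opposite strand, and the strand setting of the counting is not given in the sources used here, so its counts are uncertain to that extent.

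The AP-2 genes moved in opposite directions. *Tfap2c* (chr2:172375093-172384122), required in trophoblast stem cells and also expressed in germ cell precursors, was at 4.56, 9.90 and 19.4 CPM in WT, 195, 125 and 145 CPM in *Mbd3* KO and 28.2, 69.5 and 97.5 CPM in MBD2a. *Tfap2a* (chr13:40811044-40829192), the family member of neural crest and surface ectoderm that is also found in trophoblast, was at 66.8, 45.7 and 14.1 CPM in WT, 4.57, 3.72 and 4.36 CPM in *Mbd3* KO and 3.83, 2.68 and 4.00 CPM in MBD2a. MBD2t resembled *Mbd3* KO, with 117 to 145 CPM of *Tfap2c* and 2.99 to 3.58 CPM of *Tfap2a*. For both genes the ranges of WT and *Mbd3* KO lay apart, in opposite order. *Tfap2c* rose 13.7-fold in *Mbd3* KO (log2 fold change 3.78 ± 0.69, edgeR adjusted p = 0.000135) or 4.42 on the log2 scale without WT library s03, while *Tfap2a* fell by 3.32 ± 0.59 on the log2 scale (edgeR adjusted p = 9.77e-05). *Tfap2a* overlaps *Gm16989* on the opposite strand, and its counts are uncertain in the same way as those of *Gata3*.

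In MBD2a, *Tfap2a* was within or below its *Mbd3* KO range, whereas *Tfap2c* was intermediate. The log2 fold change of *Tfap2a* was −3.58 ± 0.60 against WT (edgeR adjusted p = 8.42e-05) and −0.26 against *Mbd3* KO, with a confidence interval from −1.55 to 1.03. For *Tfap2c* the values were 2.52 ± 0.66 against WT (edgeR adjusted p = 0.0035) and −1.25 ± 0.62 against *Mbd3* KO, where all MBD2a libraries lay below the *Mbd3* KO range but the interval from −2.56 to 0.05 included 0. MBD2aΔGR held 33.0, 12.4 and 4.18 CPM of *Tfap2a*, from a value within the WT range down to a value within the *Mbd3* KO range, and 5.41, 13.9 and 15.3 CPM of *Tfap2c*, all within the WT range. The *Tfap2a* log2 fold change of MBD2aΔGR against WT was −1.36 ± 0.53 (edgeR adjusted p = 0.114) and passed the test without s16 (−2.39, edgeR adjusted p = 0.00743) or without WT library s03 (−1.77, edgeR adjusted p = 0.0376).

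The ETS genes *Elf5* and *Ets2* act in trophoblast stem cells. *Elf5* (chr2:103251845-103291146), whose promoter is held methylated in embryonic lineages and open in trophoblast, was at 0.537, 1.13 and 0.779 CPM in WT and at 13.1, 7.30 and 10.1 CPM in *Mbd3* KO. In MBD2a it was at 1.15, 0.678 and 4.08 CPM and in MBD2t at 7.45, 6.41 and 6.75 CPM. Only s15 of the MBD2a libraries was well above the WT range, and all MBD2a libraries lay below *Mbd3* KO. *Elf5* rose 12.4-fold in *Mbd3* KO (log2 fold change 3.63 ± 0.51, edgeR adjusted p = 9.29e-06) and was lower in MBD2a than in *Mbd3* KO (log2 fold change −2.32 ± 0.45, edgeR adjusted p = 0.0026), with −3.47 when s15 was left out. Against WT the value for MBD2a was 1.31 ± 0.57 (edgeR adjusted p = 0.059), which did not pass. It passed without s13 (1.59, edgeR adjusted p = 0.0331) and without s14 (1.71, edgeR adjusted p = 0.0145), and when scaled by library size alone (1.46, edgeR adjusted p = 0.0357). MBD2aΔGR had 0.215, 0.208 and 0.277 CPM (7, 7 and 10 counts), below every WT library. Its log2 fold change against WT of −1.78 was not called, with a confidence interval from −3.56 to 0.006. MBD2aR181C libraries, at 0.446, 0.537 and 0.159 CPM, did not exceed the lowest WT library either.

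*Ets2* (chr16:95923682-95942658) was expressed in every line. The libraries held 37.8, 50.3 and 35.7 CPM in WT, 202, 171 and 175 CPM in *Mbd3* KO, 53.0, 61.6 and 107 CPM in MBD2a and 157, 162 and 153 CPM in MBD2t, and 29.7 to 44.5 CPM across MBD3a, MBD3ΔMBD and MBD2aR181C. The *Mbd3* KO rise was 4.43-fold (log2 fold change 2.15 ± 0.31, edgeR adjusted p = 1.32e-05). In MBD2a the gene was lower than in *Mbd3* KO (log2 fold change −1.30 ± 0.30, edgeR adjusted p = 0.00968), a call lost without s13 (−1.12, edgeR adjusted p = 0.0635) or s14 (−1.18, edgeR adjusted p = 0.0612). All MBD2a libraries were above WT, at 0.84 ± 0.30 (edgeR adjusted p = 0.0242), below the fold change threshold, which it passed without s13 (1.05, edgeR adjusted p = 0.0114) or WT library s02 (1.01, edgeR adjusted p = 0.0208). Library s18 of MBD2aΔGR was again separate, with 33.1, 36.5 and 95.3 CPM in that line.

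*Hand1* and *Gcm1* mark the differentiated trophoblast. *Hand1* (chr11:57642207-57646320) had the largest fitted fold change of the set over all libraries, from 1.32, 4.32 and 2.53 CPM in WT to 106, 85.5 and 125 CPM in *Mbd3* KO, a 38.7-fold rise (log2 fold change 5.28 ± 0.80, edgeR adjusted p = 1.96e-05). MBD2t libraries were at 51.5, 53.1 and 38.4 CPM and MBD2a libraries at 1.15, 3.03 and 20.5 CPM. A pair of the MBD2a libraries was thus within or below the WT range, and s15 was above it. The MBD2a mean was 8.24 ± 10.7 CPM (SD, n = 3) and 2.09 CPM without s15 (n = 2). Against *Mbd3* KO, MBD2a was lower (log2 fold change −3.66 ± 0.72, edgeR adjusted p = 0.00291), and without s15 the value was −5.67. Against WT the log2 fold change was 1.62 ± 0.76 (edgeR adjusted p = 0.0762), and without s15 it turned to −0.37 (edgeR adjusted p = 0.684). It passed the test without s13 (2.14, edgeR adjusted p = 0.0147) or s14 (2.01, edgeR adjusted p = 0.0386), and with DESeq2 (1.63, adjusted p = 0.0476).

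MBD2aΔGR showed the lowest *Hand1* of all lines, at 0.430, 0.417 and 0.415 CPM, below each of the 21 libraries of the other lines. Its log2 fold change against WT was −2.68 ± 1.10, with an unadjusted edgeR p under 0.05 but an edgeR adjusted p of 0.128. *Gcm1* (chr9:77899765-77913431) was close to the detection limit in WT, at 0.0537, 0.0550 and 0.682 CPM or 2, 2 and 28 counts, and at 9.32, 3.59 and 2.22 CPM in *Mbd3* KO. The WT libraries thus differed among themselves, with s03 far above the other two, and all were below *Mbd3* KO. *Gcm1* rose with a log2 fold change of 4.15 ± 0.86 (edgeR adjusted p = 0.00039), or 6.43 without s03, and leaving out a single library of either line gave 3.38 to 6.43. MBD2a libraries held 0.777, 3.06 and 8.89 CPM and MBD2t libraries 6.82, 6.73 and 5.30 CPM. The rise of MBD2a over WT passed the test (3.94 ± 0.87, edgeR adjusted p = 0.000893), at 2.79 without s15 and 6.22 without s03, and its difference to *Mbd3* KO of −0.21 had a wide interval from −1.44 to 1.01.

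Levels between genes were compared per kilobase of exon. In WT the order ran from *Tfap2a* at 13.01 ± 8.19 CPM per kb (mean ± SD, n = 3) through *Ets2* (8.77 ± 1.67), *Gata2* (3.12 ± 0.496), *Tfap2c* (3.06 ± 2.04), *Gata3* (2.20 ± 0.613), *Hand1* (1.36 ± 0.757), *Cdx2* (0.622 ± 0.0688) and *Tead4* (0.588 ± 0.221) to *Elf5* (0.139 ± 0.0506) and *Gcm1* (0.130 ± 0.178). Neighbours in this order lay within their SDs, except for the steps from *Ets2* to *Gata2* and from *Tead4* to *Elf5*. In *Mbd3* KO *Hand1* came first with 52.7 ± 9.77 CPM per kb, followed by *Tfap2c* with 42.2 ± 9.82, *Ets2* with 38.8 ± 3.56 and *Gata2* with 37.6 ± 5.92, 4 genes of which each overlapped the next within its SD. *Tfap2a* moved from the first place in WT to the last in *Mbd3* KO, at 1.301 ± 0.138 CPM per kb, below *Elf5* with 1.73 ± 0.490. MBD2a placed *Tfap2c* first with 17.7 ± 9.47 and *Elf5* last with 0.335 ± 0.313 CPM per kb.

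In cells with MBD2t, the isoform lacking the coiled coil, the set was close to its *Mbd3* KO pattern. All 10 genes were called against WT, 9 higher and 1 lower, where 33.4% of all genes were called. The log2 fold changes ran from 1.57 for *Gata3* and 1.62 for *Cdx2* up to 4.13 for *Hand1* and 4.49 for *Gcm1*, with −3.69 for *Tfap2a*. Against *Mbd3* KO no gene of the set was called by edgeR, and none had an unadjusted p under 0.05, where 0.0241% of all genes were called and 571 genes had an unadjusted p under 0.05. DESeq2 also called 0 of the 10. The largest difference was that of *Hand1*, at −1.14 with a confidence interval from −2.49 to 0.20. For 5 of the 10 genes, *Gata2*, *Gata3*, *Tfap2a*, *Hand1* and *Ets2*, every MBD2t library lay below every *Mbd3* KO library. Only 1 of the 10 log2 fold changes was positive, that of *Gcm1*. The share of all genes with such a separation is not given here. Since the MBD2t libraries are repeats of 1 clone, their small spread does not include differences between clones.

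In cells with MBD3a or MBD3ΔMBD no difference of the set from WT was detected. Against WT, 0 of the 10 genes were called in either line by edgeR, and none had an unadjusted p under 0.05, where 0% and 0.0181% of all genes were called and 293 and 1187 genes had an unadjusted p under 0.05. DESeq2 called 0 of the 10 in both lines. Against *Mbd3* KO all 10 were called in both lines, with *Tfap2a* higher and the other 9 lower, where 32.4% of all genes were called for MBD3a and 35.9% for MBD3ΔMBD. The largest absolute log2 fold changes against WT were −0.88 for *Elf5* in MBD3a (confidence interval from −2.50 to 0.73) and −1.10 for *Gcm1* in MBD3ΔMBD (from −4.54 to 2.35), both at levels of about 1 CPM or less. These intervals leave room for changes of several fold in the weakly expressed genes, whereas for *Ets2* they ran from −0.57 to 0.70 in MBD3a and from −0.75 to 0.52 in MBD3ΔMBD.

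**Figure D2:**
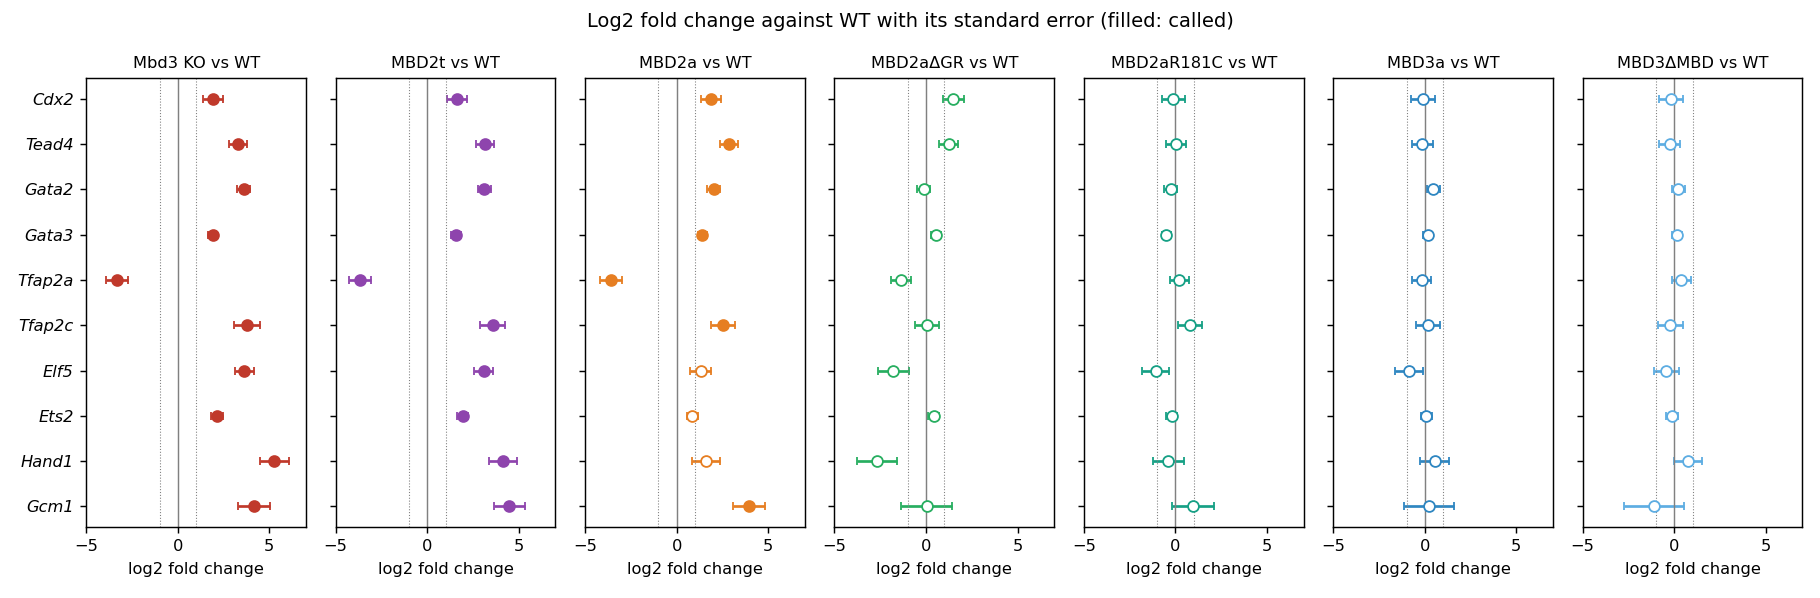
Log2 fold change of each gene against WT with its standard error (horizontal bars) in 7 lines, from edgeR on 3 libraries per line. Filled points passed the test and open points did not, and dotted lines mark a log2 fold change of 1 in each direction. All 10 genes are filled in *Mbd3* KO and MBD2t, 7 in MBD2a and 0 in the other 4 lines.

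In cells with full-length MBD2a some of the genes were below their *Mbd3* KO level and others were not. Against WT, 7 of the 10 genes were called, where 30.6% of all genes were: *Cdx2*, *Gata2*, *Gata3*, *Tfap2c*, *Tead4* and *Gcm1* were higher and *Tfap2a* was lower. Against *Mbd3* KO, 4 of the 10 were called, all lower, where 5.25% of all genes were called and 4.4% were called lower: *Hand1*, *Elf5*, *Gata2* and *Ets2*. *Gata2* alone was called in both comparisons. These comparisons share the MBD2a libraries, and all comparisons with WT share its 3 libraries. In a fit of only MBD2a and *Mbd3* KO, 0 of the 10 genes were called against *Mbd3* KO, where 241 genes were called in all.

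The position of a library between WT and *Mbd3* KO describes this for each gene, where 0% is the mean log2 CPM of the WT libraries and 100% that of *Mbd3* KO. In MBD2a the lowest, median and highest libraries stood at 82.5, 86.1 and 93.5% for *Tead4*, at 83.7, 86.6 and 122% for *Cdx2* and at 102, 104 and 121% for *Tfap2a*. These 3 genes stayed near the *Mbd3* KO mean in every MBD2a library. For *Hand1* the positions were −19.7, 5.82 and 56.7%, for *Elf5* −5.40, 15.1 and 64.9% and for *Ets2* 17.5, 27.5 and 64.7%. Here the lower pair of libraries was close to WT and s15 lay beyond the midpoint. *Gata2* (29.6, 53.0 and 74.5%), *Gata3* (38.4, 74.2 and 98.7%), *Tfap2c* (39.0, 71.6 and 83.8%) and *Gcm1* (48.6, 90.3 and 123%) were intermediate and spread widely. Library s15 was the highest of the line for 9 of the 10 genes, *Gata3* being the exception. Positions in MBD2t ran from 73.4 to 116% over all 10 genes.

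**Figure D3:**
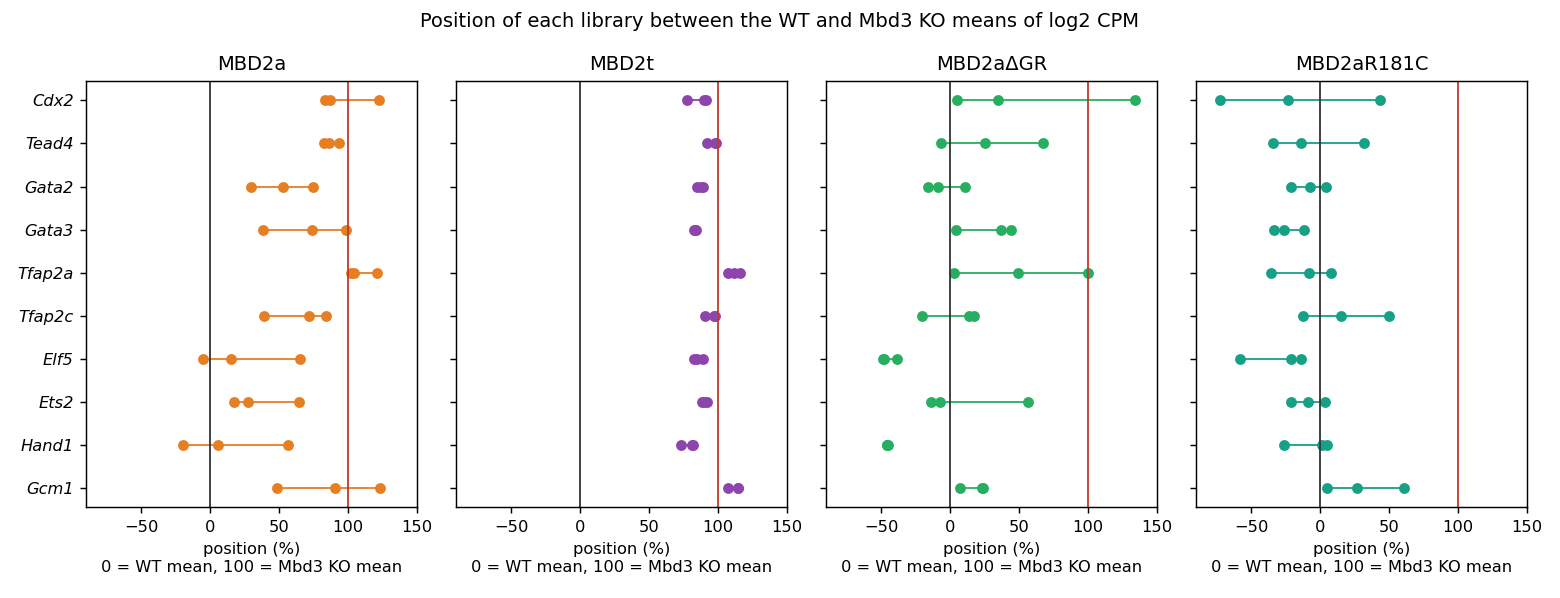
Position of each library on a scale of log2 CPM where 0% (black line) is the mean of WT and 100% (red line) that of *Mbd3* KO, by gene, in MBD2a, MBD2t, MBD2aΔGR and MBD2aR181C, with 1 point per library and a line over the range of the 3. In MBD2a, *Tead4*, *Cdx2* and *Tfap2a* lie near 100% while *Hand1* reaches from −19.7 to 56.7% and *Elf5* from −5.40 to 64.9%.

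With the altered forms of MBD2a the set was nearer to WT. In MBD2aR181C, 0 of the 10 genes were called against WT by edgeR and none had an unadjusted p under 0.05, where 0.0181% of all genes were called and 655 genes had an unadjusted p under 0.05. DESeq2 called 0 of the 10. Against *Mbd3* KO all 10 were called, *Tfap2a* higher and 9 lower, where 31.1% of all genes were called. In MBD2aΔGR, 0 of the 10 were called against WT by edgeR and 1, *Hand1*, by DESeq2, where 5.16% of all genes were called, and 5 had an unadjusted edgeR p under 0.05, as had 4409 of the 16582 genes tested. These were *Cdx2* (1.48 ± 0.56), *Tead4* (1.24 ± 0.51), *Gata3* (0.56 ± 0.26), *Tfap2a* (−1.36 ± 0.53) and *Hand1* (−2.68 ± 1.10), with edgeR adjusted p from 0.101 to 0.177. Leaving out s16 gave 3 calls (*Cdx2*, *Tead4* and *Tfap2a*, at 1.70, 1.58 and −2.39), leaving out s17 gave 1 (*Cdx2*, 1.82) and leaving out WT library s03 gave 1 (*Tfap2a*). Against *Mbd3* KO, 9 of the 10 were called, *Tfap2a* higher and 8 lower, where 25.2% of all genes were called. *Cdx2* was the exception, and the *Tfap2a* call was lost without s16 (0.94, edgeR adjusted p = 0.187).

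The direct comparison of MBD2a with its variants asks which genes differ between these lines. MBD2a differed from MBD2aR181C in all 10 genes, with 9 higher and *Tfap2a* lower, where 27.3% of all genes were called. The log2 fold changes ran from 1.03 ± 0.30 for *Ets2* to 2.99 ± 0.77 for *Gcm1*, with −3.79 ± 0.61 for *Tfap2a*. Without s15, 5 of the 10 were called, where 3685 genes were in place of 4525. *Elf5*, *Ets2*, *Gcm1*, *Tfap2c* and *Hand1* lost their calls, at 1.25, 0.67, 1.82, 1.32 and 0.01. *Hand1* and *Tfap2c* were also not called without s19 (1.65 and 1.34) or s21 (2.18 and 1.55), *Tfap2c* without s14 (1.71) and *Ets2* without s21 (0.91). MBD2a differed from MBD2aΔGR in 7 genes, where 18.6% of all genes were called: *Hand1* (4.30 ± 1.01), *Gcm1* (3.91 ± 0.89), *Elf5* (3.08 ± 0.74), *Tfap2c* (2.49 ± 0.67), *Gata2* (2.13 ± 0.36) and *Tead4* (1.61 ± 0.45) were higher in MBD2a and *Tfap2a* (−2.23 ± 0.59) was lower. *Cdx2*, *Ets2* and *Gata3* were not called, with confidence intervals from −0.65 to 1.42, −0.20 to 1.06 and 0.32 to 1.376. *Gata3* had an edgeR adjusted p of 0.0143 and was below the fold change threshold. Without s18 of MBD2aΔGR all 10 were called, 9 higher and *Tfap2a* lower, where 3847 genes were called in place of 3080. *Cdx2*, *Ets2* and *Gata3* were then at 1.48, 1.09 and 1.00. Without s14 of MBD2a 8 were called, *Gata3* among them, where 2963 genes were. Without s15 the calls of *Elf5* (1.96, edgeR adjusted p = 0.0513) and *Hand1* (2.31, edgeR adjusted p = 0.066) were lost, and without s16 that of *Tfap2a* (−1.20, edgeR adjusted p = 0.13). In a fit of only these lines 3 of the 10 were called, where 1699 genes were. The *Mbd2* RNA level of MBD2a, at 67.0 to 87.2 CPM, was below that of both variants, so that *Mbd2* RNA level and form of the protein differed together. Protein levels were not measured in these libraries. The part of RNA level and of protein form in these differences was not tested.

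Clones of a line differed for several genes of the set at once. In 6 lines a single library was the highest of its line for at least 7 of the 10 genes: s15 in MBD2a (9), s20 in MBD2aR181C (9), s12 in MBD3ΔMBD (9), s08 in MBD3a (8), s18 in MBD2aΔGR (7) and s04 in *Mbd3* KO (7). The same count was not made over all genes. The 10 genes also varied together across libraries, so these counts do not single out the set. Within 5 of the 8 lines, WT, MBD3a, MBD2aR181C, MBD2aΔGR and MBD2t, the library with the lowest *Tfap2a* (s03, s08, s20, s18 and s22) was also the one with the highest *Tfap2c* and the highest *Gcm1*, a pattern chosen after its values were seen. For WT this is the library with 28 *Gcm1* counts against 2 and 2. The margins were small in MBD2aΔGR, with 12 *Gcm1* counts in s18 and 11 in s17. They were small in MBD2t too, where s22 and s23 held 6.82 and 6.73 CPM of *Gcm1* and 145 and 142 CPM of *Tfap2c*. The MBD2t libraries are repeats of 1 clone and show no differences between clones.

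Placing the genes beside their paralogues shows how the composition of each family changed. Of 16 paralogues 13 passed the filter, and 5 rose and 2 fell in *Mbd3* KO, where 33.8% of all genes were called. Those that rose were *Cdx1* (3.05 ± 0.83), a posterior homeobox gene like *Cdx2*, the epithelial ETS gene *Elf3* (2.97 ± 0.65), *Gata1* (2.05 ± 0.76) of the blood lineage, *Gata5* (1.53 ± 0.35) and *Tead3* (1.58 ± 0.23). *Tfap2b* (−4.37 ± 0.70) and *Tfap2e* (−2.18 ± 0.58) fell. *Gata4* (0.94 ± 0.94), *Gata6* (1.08 ± 0.69), *Hand2* (−0.44 ± 0.79), *Tead1* (0.46 ± 0.19), *Tead2* (−0.99 ± 0.12) and *Ets1* (0.19 ± 0.25) were not called, *Tead2* lying just inside the fold change threshold. *Elf3*, *Gata5*, *Gata6* and *Tead2* each have an overlapping gene model in antisense.

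The AP-2 transcripts were a mixture in WT and almost all *Tfap2c* in *Mbd3* KO. In WT, *Tfap2a* made up 29.0 to 51.5% of the summed CPM per kb of the family, *Tfap2b* 33.4 to 44.5% and *Tfap2c* 3.10 to 35.2%. In *Mbd3* KO, *Tfap2c* made up 94.3 to 97.2%, *Tfap2a* 2.58 to 3.22% and *Tfap2b* 0.188 to 2.30%. The total was 15.0 to 40.0 CPM per kb in WT and 36.0 to 54.7 in *Mbd3* KO, so that the ranges of the totals overlapped while those of the shares did not. MBD2a had a *Tfap2c* share of 74.7 to 94.1% and a total of 10.3 to 28.2 CPM per kb, and MBD2t a share of 94.4 to 96.5% and a total of 33.7 to 40.7. In MBD2a *Tfap2c* thus made up most of the family, at a share and a total below those of every *Mbd3* KO library. There *Tfap2a* reached up to 11.5% and *Tfap2b* up to 12.8%.

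Within the GATA family the total and the share of *Gata2* were higher in *Mbd3* KO than in WT. The sum over *Gata1* to *Gata6* was 9.26 to 13.1 CPM per kb in WT and 51.9 to 65.9 in *Mbd3* KO, and *Gata2* made up 27.8 to 30.6% and 59.5 to 74.4% of it. MBD2a reached 18.3 to 59.0 CPM per kb with a *Gata2* share of 22.7 to 35.3%, and the primitive endoderm factors *Gata4* and *Gata6* were there at 2.15 to 20.6 and 4.95 to 17.1 CPM per kb. In s18 of MBD2aΔGR they stood at 74.5 and 43.3 CPM per kb, and in the other libraries of that line at no more than 3.30 and 4.50. In MBD2aΔGR against WT, *Gata4* (3.98 ± 0.99, edgeR adjusted p = 0.0234) and *Gata6* (2.57 ± 0.70, edgeR adjusted p = 0.0325) were called higher. So were 10 of 12 primitive endoderm marker genes in all, where 5.16% of all genes were called. Without s18, 0 of the 12 were called, where 121 genes (0.722%) were called in all.

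*Tead4* remained a minor member of its family. It made up 0.342 to 0.756% of the TEAD total in WT, 5.97 to 7.53% in *Mbd3* KO and 5.33 to 6.56% in MBD2a, while the total was 89.6 to 104 CPM per kb in WT and 82.0 to 90.3 in *Mbd3* KO. *Tead2*, the form of neural tissue and early embryo, went from 74.5 to 81.4% in WT to 40.9 to 45.9% in *Mbd3* KO, and *Tead3*, which is strong in placenta, from 7.52 to 9.49% to 25.6 to 29.8%. In MBD2a, *Tead3* was at 0.44 ± 0.22 against WT (edgeR adjusted p = 0.104), and fell against *Mbd3* KO by 1.14 on the log2 scale (edgeR adjusted p = 0.00283), unlike *Tead4*, whose difference to *Mbd3* KO is given above. In MBD2t, *Tead3* and *Tead4* were both called higher than in WT (1.29 ± 0.22 and 3.14 ± 0.49).

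**Figure D4:**
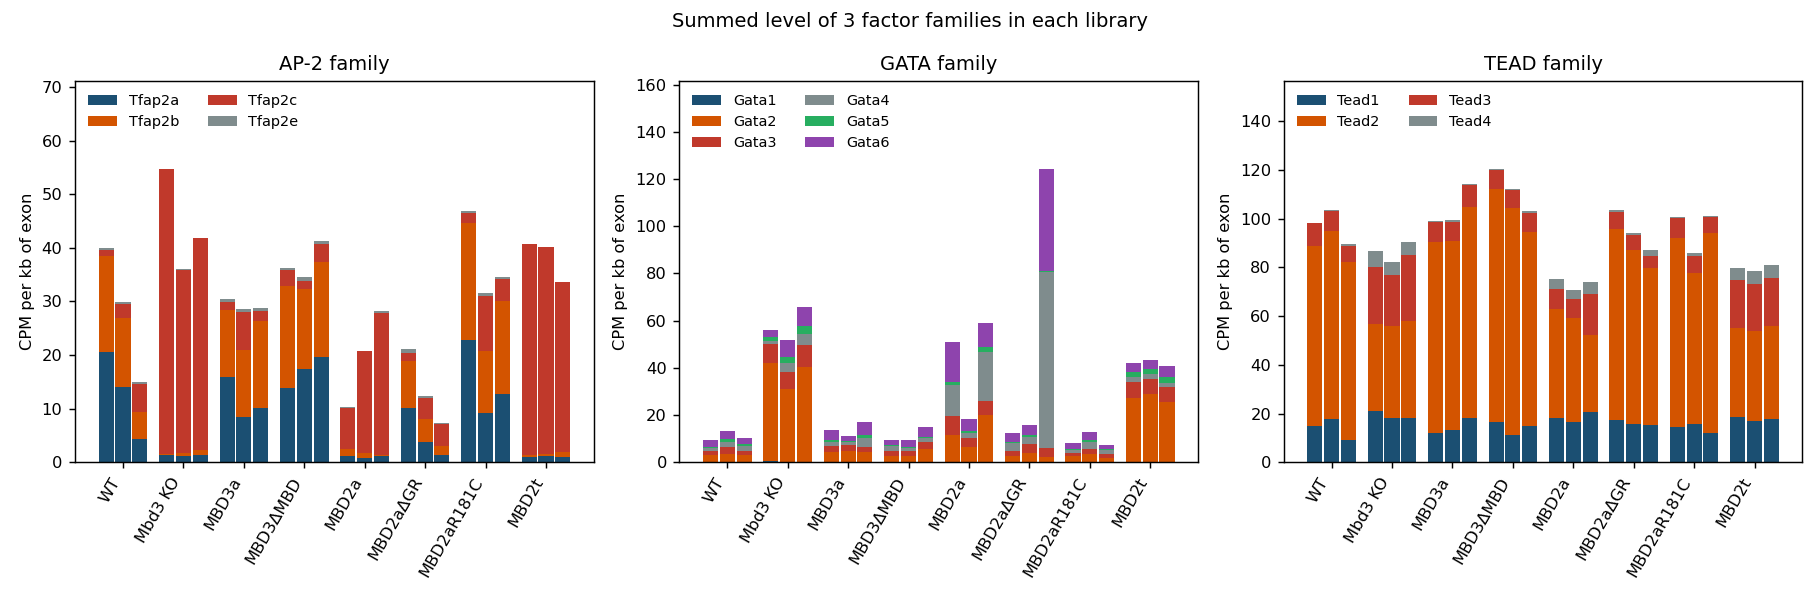
Level of the AP-2, GATA and TEAD family genes in CPM per kb of exon, stacked in each of the 24 libraries in groups of 3 per line. *Tfap2c* makes up most of the AP-2 total in *Mbd3* KO, MBD2a and MBD2t. *Gata2* dominates the GATA total in *Mbd3* KO and MBD2t, and *Gata4* with *Gata6* in library s18 of MBD2aΔGR.

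Other genes of the trophoblast were taken from lists. Of 24 further regulators, 17 rose and 3 fell in *Mbd3* KO, where 19.6% of all genes were called higher and 14.2% lower, with a median log2 fold change of 2.30 against −0.03 over all genes tested. The 4 with the largest changes were the X-linked homeobox genes *Rhox6* (4.94 ± 0.93) and *Rhox9* (4.61 ± 0.95), the T-box gene *Eomes* of trophoblast stem cells (4.22 ± 0.69) and *Sox15* (3.65 ± 0.77), a partner of HAND1 in giant cells. *Mycn* (−1.94 ± 0.18), *Id2* (−1.23 ± 0.23) and *Sox2* (−1.03 ± 0.30), which neural progenitors also express, fell. *Rhox6* and *Rhox9* are close relatives, and reads may be divided between them.

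The products of trophoblast cells rose as well. Of 23 such genes, 21 rose and 0 fell in *Mbd3* KO, against the same 19.6% of all genes higher, with a median of 4.42, and their summed level was 195 to 424 CPM in WT and 2787 to 3725 CPM in *Mbd3* KO. The cathepsin gene *Ctsq* (7.39 ± 0.79), the proliferin gene *Prl2c2* (7.13 ± 0.59) and *Prl3d1* (6.999 ± 0.51), a placental lactogen of giant cells, had the largest values beside *Prl8a9*, whose WT libraries were at 0 counts. *Ctsq* averaged 0.0254 CPM in WT, below the low-count level of 0.0607 to 0.107 CPM given above. The size of the *Ctsq* fold change is therefore uncertain. *Prl2c2* belongs to a family of near-identical copies. *Tpbpa* (1.13 ± 0.84) of the spongiotrophoblast and *Pappa2* (−0.57 ± 0.46) were not called. *Hand1* is on this list as well.

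The same lists were read in MBD2a. Of the 24 regulators, 16 were higher and 2 lower than in WT, where 16.9% of all genes were called higher, and 0 were higher and 3 lower than in *Mbd3* KO, namely *Ovol1* (−1.20 ± 0.32), *Cited2* (−1.36 ± 0.26) and *Peg10* (−1.35 ± 0.38). *Eomes* was at 3.55 ± 0.71 against WT and at −0.67 ± 0.52 against *Mbd3* KO. Of the 23 products, 9 were higher and 1 lower than in WT, and 13 were lower than in *Mbd3* KO, where 4.4% of all genes were. *Prl3d1* (−6.45 ± 0.49), *Prl4a1* (−5.31 ± 0.89) and *Prl2c2* (−5.10 ± 0.50) had the lowest values. The summed product level was 706, 749.5 and 2848 CPM in MBD2a, the highest in s15, which reached the *Mbd3* KO range. Without s15, 11 regulators were higher than in WT and 2 lower, and 5 products were higher and 1 lower. Of all genes 26.0% were called there, 12.5% as lower and the rest as higher. In the same fit 9 regulators and 19 products were lower than in *Mbd3* KO, where 6.42% of all genes were called lower.

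Of 12 genes of the FGF and ERK arm, on which trophoblast stem cells depend, 4 rose in *Mbd3* KO and 0 fell, a share close to that of all genes called (33.8%, with 19.6% higher): *Fgf4* (4.14 ± 0.78), the ETS genes *Etv5* (2.79 ± 0.51) and *Etv4* (1.07 ± 0.20), and the feedback inhibitor *Spry4* (2.10 ± 0.40). In MBD2a, *Fgf4* (4.19 ± 0.78) and *Etv5* (2.68 ± 0.51) were called higher than in WT too, and *Etv4*, at 0.10 ± 0.21, was not. Of 17 genes of the Hippo arm *Tead3* alone rose in *Mbd3* KO, below the 19.6% of all genes, with a median of 0.06.

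Several genes of the set are also markers of other cell types, whose lists are read here against the 19.6% of all genes called higher and the 14.2% called lower in *Mbd3* KO. All 11 neural progenitor genes fell in *Mbd3* KO, led by *Msx3* (−7.44 ± 0.58), *Fabp7* (−7.12 ± 0.62), *Pax3* (−7.10 ± 0.57) and *Hes5* (−6.93 ± 0.47). Of 10 pluripotency genes 9 rose, among them *Tdgf1* (4.53 ± 0.67), *Zfp42* (3.51 ± 0.95) and *Tfcp2l1* (3.19 ± 0.57), and 1 fell. All 9 surface ectoderm genes rose, led by *Krt14* (4.73 ± 0.68), with *Cdh1* (2.68 ± 0.39), *Trp63* (2.58 ± 0.51) and *Epcam* (2.53 ± 0.37), in the samples where *Tfap2a* fell. *Krt14* averaged 0.0533 CPM in WT, below the level of 3 counts, so the size of its fold change is uncertain. Of 9 neural crest genes 5 fell, *Pax3*, *Foxd3* (−5.20 ± 0.88) and *Tfap2b* most, and 1 rose, *Sox10* (5.83 ± 1.03).

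Of 6 tested posterior mesoderm genes 4 rose, *Foxf1* (4.38 ± 0.56), *Cdx1*, *Hes7* (2.60 ± 0.27) and *T* (1.67 ± 0.54), as did 4 of 6 intestinal endoderm genes, among them *Vil1* (3.20 ± 0.75), *Cdx1* and *Slc15a1* (2.91 ± 0.74). Of 4 tested genes of V2 interneurons, where GATA2 and GATA3 act, *Foxn4* (3.11 ± 0.30) rose, where 19.6% of all genes were called higher. In primitive endoderm 1 of 12 rose in *Mbd3* KO, *Foxa2* (1.46 ± 0.55), a share below that of all genes, against 7 in MBD2a, or 2 without s15, where 16.9% of all genes were called higher over all libraries. Summed levels of these lists did not follow one pattern. The 10 genes summed to 94.0 to 139 CPM in WT, 554 to 729 in *Mbd3* KO and 178 to 356 in MBD2a. Surface ectoderm genes were at 191 to 346 CPM in WT, 1255 to 1503 in *Mbd3* KO and 991 to 1328 in MBD2a. They were close to *Mbd3* KO where the sum of the 10 genes was well below it. That sum adds *Tfap2a* to the genes that rose, and 4 of the 10 were called lower in MBD2a than in *Mbd3* KO. Primitive endoderm genes were at 494 to 643, 941 to 1461 and 435 to 2984 CPM, so that MBD2a reached from below WT to above *Mbd3* KO. The part of these cell types in the levels of the 10 genes was not tested.

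**Figure D5:**
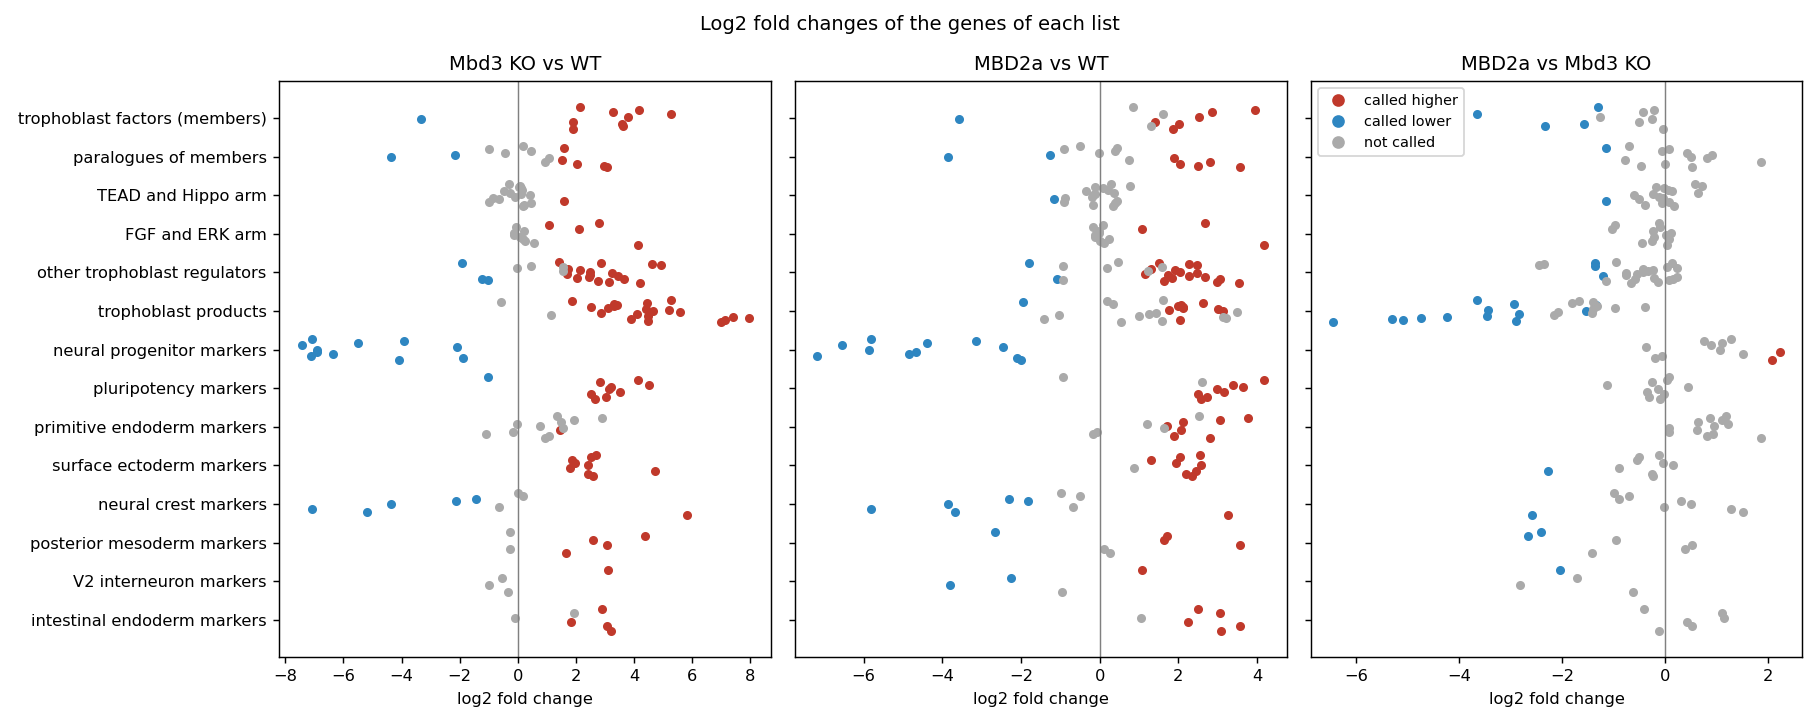
Log2 fold changes of the tested genes of each list in *Mbd3* KO against WT, MBD2a against WT and MBD2a against *Mbd3* KO, with 1 point per gene, red where it was called higher, blue where it was called lower and grey otherwise. Trophoblast products lie to the right in *Mbd3* KO and to the left where MBD2a is set against *Mbd3* KO, and all 11 neural progenitor genes are blue in both comparisons with WT.

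Across the 24 libraries the levels of the 10 genes varied together. Of the 45 pairs, the 36 without *Tfap2a* all had a positive Pearson correlation of log2 CPM, from 0.51 for *Cdx2* with *Hand1* to 0.96 for *Tfap2c* with *Gcm1*. The 9 pairs with *Tfap2a* were all negative, from −0.95 with *Tead4* to −0.53 with *Hand1*. The libraries fall into lines near WT and lines near *Mbd3* KO, so that these values describe mostly the step between them, and no test was made.

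The 3 genes most like each factor over the 24 libraries were found by the same measure, as a description. *Elf5* was closest to *Errfi1* (r = 0.96), *Atp2c2* and *Krt7*, and *Tead4* to *Dsg2* (r = 0.99), *Tnip1* and *Ntf5*. For *Tfap2c* the genes included *Zfp36l3* (r = 0.98) and *Slc30a2*. *Gata2* was closest to *Ppp1r13b* (r = 0.98), *Pxn* and *Errfi1*, and *Gata3* to *Rbms1* (r = 0.96), *Jak1* and *Spint1*. For *Hand1* they were *Arhgef6* (r = 0.99), *Afap1l2* and *Trpv2*, for *Gcm1* *Acap1* (r = 0.98), *Phf19* and *Psors1c2*, and for *Ets2* *Prr5* (r = 0.98), *Litaf* and *Cnn2*. *Cdx2* was closest to *Esyt3* (r = 0.94), *Lmo7* and *A4galt*. *Tfap2a* was closest to *Plcxd2* (r = 0.99), *Asic1* and *Kif3c*.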

How the data were processed

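Poly(A) RNA of NPCs was sequenced by the authors, who trimmed reads with Trim Galore, aligned them with STAR to NCBIM37 (mm9) and counted reads per gene with qCount of QuasR. The deposited values are these whole-number counts, not normalized. Libraries were assigned to lines by the group names of the columns. With 3 libraries per line an exact permutation test cannot give p under 0.1. Here, genes were filtered with filterByExpr by line, normalized by TMM and fitted once over 24 libraries with glmQLFit and glmQLFTest of edgeR 4.0.16 (R 4.3.3). SE was taken as the size of the log2 fold change over the root of F, and log2 CPM used a prior count of 1. Of 162 listed symbols 160 matched, *Rhox5* and *Sox1* being the others. The 10 genes, the lists and the rule for named genes were chosen with earlier results of these data known. That rule takes the 10 genes, tested paralogues, the 4 largest calls per list in *Mbd3* KO and the 3 most similar genes. Others named (calls of 5 or fewer in other comparisons, *Tpbpa*, *Pappa2*, *Eomes* and *Prl4a1* in MBD2a) were chosen after their values were seen. Alternatives were a fit of the lines compared, a fit without MBD2t, RLE or no scaling, DESeq2 1.42.0, other filters, glmTreat, no fold threshold and leaving out each library. The legacy test of edgeR and the list counts without s15 or s18 were added after the data were seen. The procedure was tested on simulated counts. A few genes that the rule takes are not reported here. The ChIP-seq samples were not analysed here.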

Additional observations from a re-analysis of the deposited data

How the results depend on the processing

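No paired analysis was possible because the deposited columns carry library numbers and no replicate number. For 115 log2 fold changes (those called, those of MBD2a and MBD2aΔGR against WT and *Mbd3* KO, and the others given with values), 1805 of 1828 alternative values kept their direction and 1735 also their side of the threshold. For the 35 remaining, none called, 33 of 550 alternative values reversed and 0 were called. All 10 calls of *Mbd3* KO against WT were kept whichever library was left out, and *Cdx2* alone lost its call under another alternative (glmTreat). The number of the 10 genes called changed by more than 1.5 times in 4 comparisons. MBD2a against MBD2aΔGR gave 4 with glmTreat, 3 in a fit of only these lines and 5 to 10 when a library was left out. MBD2a against MBD2aR181C gave 5 with glmTreat and 5 to 10 when a library was left out. MBD2a against *Mbd3* KO gave 1 with glmTreat, 0 in a fit of only these lines and 3 to 4 when a library was left out. MBD2aΔGR against WT gave 1 with DESeq2 and 0 to 3 when a library was left out. The 23 values of the 115 that reversed were all of differences not called, and 22 of them came from leaving out a library. Over those fits, in MBD2a against *Mbd3* KO *Cdx2* ran from −0.32 to 0.10 (reversed without s13, s14, s05 or s06) and *Gcm1* from −1.39 to 0.56 (s13, s04). In MBD2a against WT *Hand1* ran from −0.37 to 2.14 (s15). In MBD2aΔGR against WT *Ets2* ran from −0.25 to 0.62 (s18), *Gata2* from −0.48 to 0.077 (s18, s02), *Gcm1* from −0.47 to 2.31 and *Tfap2c* from −0.38 to 0.68 (s17, s18, s01 or s02 for both). Against WT, *Ets2* ran from −0.0252 to 0.218 in MBD3a (WT libraries s01 or s03) and from −0.295 to 0.0279 in MBD3ΔMBD (s02), and *Gcm1* from −1.59 to 1.18 in MBD3ΔMBD (s03). *Tfap2c* in MBD2aΔGR was at −0.00270 without MBD2t. Over all genes, the calls in a fit of only the lines compared went from 871 to 241 in MBD2a against *Mbd3* KO, from 3080 to 1699 in MBD2a against MBD2aΔGR and from 856 to 13 in MBD2aΔGR against WT (472 without MBD2t), and DESeq2 gave 15 in place of 3 in MBD2aR181C and 23 in place of 3 in MBD3ΔMBD against WT. The cause was not tested. Scaling by library size alone shifted the median of all genes by 0.14 in *Mbd3* KO, 0.15 in MBD2a and 0.16 in MBD2t against WT, and RLE by under 0.1. Each of the 10 genes kept its direction in *Mbd3* KO against WT under both. Depth limits *Gcm1* and *Elf5*, which held few counts in WT-like lines.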
